A study of Mus musculus with 18 samples.

Results

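The bone morphogenetic protein (BMP) pathway was examined through 10 genes: the ligands Bmp2, Bmp4, Bmp5 and Bmp7, the secreted antagonists Nog and Chrd, the ID target genes Id1, Id2 and Id3, and Smad6, a target that also inhibits the pathway. They were chosen by gene symbol from the 34244 named genes of the table, and all 10 were among the 19397 genes that passed a filter on low values. RNA-seq was performed on 9 whole FVB mouse embryos at E11.5, 3 of each of 3 genotypes. Dnmt3b, a DNA methyltransferase that places methyl groups on previously unmethylated cytosines, was wild type in Dnmt3b+/+ embryos. Dnmt3b-/- embryos carried a conventional null allele made from mice with a loxP-flanked Dnmt3b gene, present in every cell. Dnmt3bCI/CI embryos carried a knock-in of a catalytically inactive Dnmt3b at its own locus, made by CRISPR/Cas9 in zygotes. Only live embryos with a heartbeat were processed by the authors, and the litter of each embryo is not given. No embryo received a treatment.

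BMPs are secreted dimers that bind pairs of type I and type II receptor kinases, which phosphorylate SMAD1, SMAD5 and SMAD9, and these enter the nucleus with SMAD4 to switch on target genes. Noggin and chordin, the products of Nog and Chrd, bind the ligands outside the cell and keep them from their receptors. ID proteins are helix-loop-helix proteins without a DNA-binding domain that hold E proteins away from DNA, and SMAD6 blocks the receptors and receptor-activated SMADs. In the midgestation embryo the pathway is known for patterning the limb bud, the dorsal neural tube, the heart and the skeleton.

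The genotype labels were first compared with Dnmt3b itself. Its level, summed over the gene, was 2.25, 1.62 and 2.04 FPKM where the label was Dnmt3b+/+, 2.45, 3.12 and 3.33 FPKM where it was Dnmt3b-/-, and 2.06, 1.98 and 2.32 FPKM where it was Dnmt3bCI/CI. FPKM is a read count divided by the length of the gene and by the depth of the library, which puts genes and embryos on a common scale. It does not correct for differences in RNA make-up between libraries, so results under other scalings are given below. RNA of the gene was thus not lower under the null label, a sum over the gene does not check a deletion of some of its exons, and these embryos are named by their label throughout. The values were normalized to 38451729 to 49808777 reads per library. The 10 genes rested on 142 reads (Chrd, embryo 3 labelled Dnmt3b-/-) to 4194 reads (Id3, embryo 1 labelled Dnmt3b-/-). Markers of neurons, cartilage and red cells were present in every library, but organ markers did not reach whole-embryo levels in all of them. In Dnmt3b+/+ embryo 2 the liver genes Alb, Afp, Apoa1 and Fgb were near 0, with Alb at 0.103 FPKM against 43.7 and 85.7 FPKM in the other 2 Dnmt3b+/+ embryos and 9.67 to 59.9 FPKM in the mutants. The heart gene Nppa was 0.104 FPKM in Dnmt3b+/+ embryo 1 and 0.210 FPKM in Dnmt3bCI/CI embryo 3, against 3.74 to 38.7 FPKM in the other 7. The lens crystallin Cryaa was 0.0175 FPKM in Dnmt3bCI/CI embryo 2 and 3.09 to 42.9 FPKM in the other 8. The libraries labelled whole embryo thus held unequal shares of organ RNA, within genotypes as well as between them. When any 1 of these 4 libraries was left out, the same 8 of the 10 genes were called under the Dnmt3b-/- label against Dnmt3b+/+ as with all 9. In such samples, fewer cells of a type and less RNA per cell cannot be told apart.

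Sequences just upstream of the start sites are shown because SMAD proteins bind short DNA elements near target genes and because 4 of the 10 genes rose and 4 fell. RefSeq promoter windows of build GRCm38.p6 were at hand for 6 of the 10 genes, and the 250 bases before the RefSeq start were searched on both strands for GGCGCC, a GC-rich SMAD1/5 element that reads the same on both strands, and for CAGAC, a SMAD-binding element that reads GTCTG where it lies on the other strand. The 2 motifs shared no base in these windows. Matches are in capitals, and each sequence runs 5′ to 3′ on the strand of the gene. Id2 and Id3 stand for the genes that rose, and Chrd and Bmp5 for those that fell. The start sites of RefSeq and GENCODE differ for the ID genes, so that all 250 bases of Id3 lie in an untranslated first exon of GENCODE, of which only the 2 sites are shown, and 161 of those of Id2 lie in exons of a longer transcript, of which the other 89 are shown.
Id2: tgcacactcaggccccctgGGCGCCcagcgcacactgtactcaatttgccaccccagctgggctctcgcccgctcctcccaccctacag
Id3 site 1: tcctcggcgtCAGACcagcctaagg
Id3 site 2: acccttggcgGTCTGttttgaataa
Chrd: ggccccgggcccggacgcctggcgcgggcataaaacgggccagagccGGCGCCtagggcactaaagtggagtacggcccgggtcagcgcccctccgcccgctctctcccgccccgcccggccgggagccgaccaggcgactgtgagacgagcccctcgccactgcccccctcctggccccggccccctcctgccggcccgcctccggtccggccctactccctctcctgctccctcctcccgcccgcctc
Bmp5: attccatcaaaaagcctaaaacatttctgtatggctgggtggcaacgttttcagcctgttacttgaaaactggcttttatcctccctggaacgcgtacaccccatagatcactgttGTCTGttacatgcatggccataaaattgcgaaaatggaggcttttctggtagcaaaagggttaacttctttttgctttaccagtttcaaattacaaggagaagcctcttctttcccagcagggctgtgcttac
These stretches lie at chr12:25096254-25096342 on the minus strand (Id2, in an intron of the longer transcript), chr4:136143645-136143669 and chr4:136143744-136143768 on the plus strand (Id3), chr16:20732877-20733126 on the plus strand (Chrd) and chr9:75775115-75775363 on the plus strand (Bmp5). Id2 held 1 GGCGCC and so did Chrd, whose level moved the other way, while Id3 held 2 CAGAC elements, 1 on each strand, and Bmp5 held 1. The windows of Bmp4 and Smad6 held neither set of letters. Among all 32851 windows of this length, 9.59% held GGCGCC and 42.2% held CAGAC on either strand. CpG dinucleotides, the sites that Dnmt3b methylates, numbered 18 in the windows of Id2 and Id3, 28 in Chrd, 27 in Smad6, 11 in Bmp4 and 4 in Bmp5, against a median of 6 over all windows. DNA methylation was not analysed here.

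The wild-type embryo gives the baseline. Id3 had the highest mean of the 10 genes in Dnmt3b+/+ embryos, 34.6 ± 0.44 FPKM (SD, n = 3), followed by Id1 at 23.5 ± 0.93 FPKM and Id2 at 11.7 ± 0.74 FPKM, and these 3 genes did not overlap one another or any other member. Bmp7 came next at 8.48 ± 0.55 FPKM and Bmp4 at 7.38 ± 1.01 FPKM. Nog, at 6.83 ± 0.77 FPKM, and Smad6, at 5.95 ± 0.18 FPKM, followed. Neighbours in the stretch from Bmp7 through Bmp4 and Nog to Smad6 overlapped. Bmp2 stood apart from its neighbours at 3.75 ± 0.36 FPKM, and Bmp5 at 2.14 ± 0.44 FPKM and Chrd at 1.78 ± 0.23 FPKM overlapped at the low end. In Dnmt3bCI/CI embryos the order of the 10 means was the same. Under the Dnmt3b-/- label, Bmp4 stood above Bmp7 without overlap, and Nog stood below Smad6 without overlap.

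**Figure D1:**
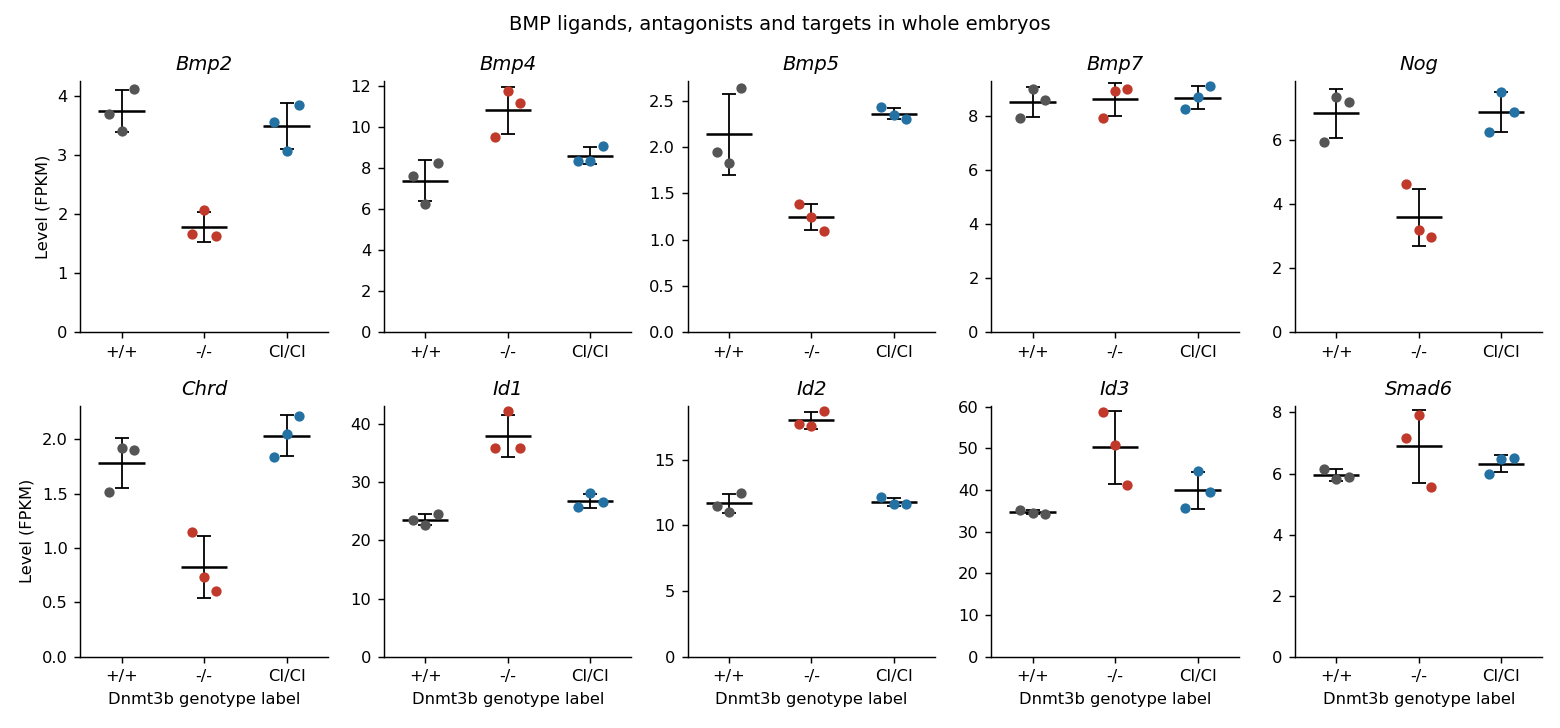
Level of each of the 10 genes (FPKM, linear axis from 0) in every embryo, by genotype label; points are embryos 1, 2 and 3 from left to right, the horizontal line is the mean and the bar the SD (n = 3). The points of Bmp2, Bmp5, Nog and Chrd labelled -/- lie below all others, those of Id1, Id2 and Bmp4 above all others, and those of Bmp7 among the others.

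The first comparison asked what loss of Dnmt3b changes. In the embryos labelled Dnmt3b-/-, the IDs and the ligand Bmp4 rose, the antagonists Nog and Chrd and the ligands Bmp2 and Bmp5 fell, and Bmp7 and Smad6 did not pass the test. In all, 8 of the 10 genes were called at a Benjamini-Hochberg adjusted p under 0.05 in limma, where 25.8% of all tested genes were called. Of these, 4 rose and 4 fell, against backgrounds of 9.41% and 16.4%. The split of all called genes depended on the scaling, with 1826 of 5001 higher as deposited, 2401 of 5080 under median-of-ratios scaling and 2236 of 4280 under quantile normalization, while the 8 members kept their calls and directions under both. Only Bmp2 and Chrd also changed by at least 2-fold, a rule that 4.45% of tested genes passed, and with a pseudocount of 1 FPKM neither did (log2 fold changes of −0.77 and −0.61). The 8 called genes were also those whose embryos did not overlap between the 2 genotypes, as was the case for 38.9% of all tested genes.

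Among the ligands, Bmp2, which acts in heart cushion and skeletal development, was 3.71, 3.42 and 4.13 FPKM in Dnmt3b+/+ embryos and 1.66, 2.08 and 1.62 FPKM under the Dnmt3b-/- label. All 3 of the latter lay below all 3 of the former. The log2 fold change was −1.03 ± 0.12 (SE, limma adjusted p = 0.00135), a 2.05-fold fall. Bmp2 lies at chr2:133552159-133562885 on the plus strand.

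Bmp5, a ligand of skeletal condensations and limb mesenchyme, was 1.95, 1.83 and 2.64 FPKM in Dnmt3b+/+ and 1.38, 1.25 and 1.10 FPKM under the Dnmt3b-/- label. The groups did not overlap, and Dnmt3b+/+ embryo 3 was the highest of the 6. The fall was 1.65-fold (log2 fold change −0.73 ± 0.14, limma adjusted p = 0.00860) and was 0.48 on the log2 scale with a pseudocount of 1 FPKM. At chr9:75775364-75900310 on the plus strand, Bmp5 shares 1878 exon bases with Gm26903 on the opposite strand, listed at 0.513 to 0.762 FPKM in Dnmt3b+/+ and 0.371 to 0.452 FPKM under the Dnmt3b-/- label. Whether the counting used strand is not given in the sources used here, so reads of the pair cannot be told apart in that stretch.

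Bmp4, which acts in dorsal neural tube, limb ectoderm and lateral mesoderm, went the other way. Its level was 7.62, 6.27 and 8.24 FPKM in Dnmt3b+/+ and 9.53, 11.8 and 11.2 FPKM under the Dnmt3b-/- label, again without overlap. The rise was 1.46-fold (log2 fold change 0.55 ± 0.11, limma adjusted p = 0.0103). Bmp4 lies at chr14:46383520-46390669 on the minus strand, and only 89 of its exon bases are shared with an antisense gene, Gm15217, that reached 0.32 FPKM at most.

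Bmp7, a ligand needed for kidney and eye development, was 7.89, 8.99 and 8.56 FPKM in Dnmt3b+/+ and 7.90, 8.92 and 8.98 FPKM under the Dnmt3b-/- label. These values lie within one range, and the log2 fold change was 0.02 with a 95% interval from −0.15 to 0.19 (limma adjusted p = 0.863). Its sign turned when any of Dnmt3b+/+ replicate 1 (−0.03), Dnmt3b-/- replicate 2 (−0.01) or Dnmt3b-/- replicate 3 (−0.01) was left out. A change as large as that of any of the other 3 ligands therefore lies outside the interval. Bmp7 is at chr2:172868012-172940321 on the minus strand.

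Because 2 ligands fell, 1 rose and 1 was near 0, the summed level of the 4 ligands changed little. It was 21.2, 20.5 and 23.6 FPKM in Dnmt3b+/+ embryos and 20.5, 24.0 and 22.9 FPKM under the Dnmt3b-/- label, and the groups overlapped. The make-up of the sum differed. Bmp4 contributed 30.6 to 36.0% of it in Dnmt3b+/+ embryos and 46.5 to 49.0% under the Dnmt3b-/- label, whereas Bmp2 contributed 16.7 to 17.5% and 7.10 to 8.66%. Bmp4 stood at 1.84 to 2.06 times Bmp2 in Dnmt3b+/+ embryos and at 5.66 to 6.87 times Bmp2 under the Dnmt3b-/- label. These sums and ratios are given per embryo as a description.

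Both antagonists fell. Nog was 5.95, 7.34 and 7.19 FPKM in Dnmt3b+/+ and 4.62, 3.18 and 2.98 FPKM under the Dnmt3b-/- label, with embryo 1 the lowest of the first group and the highest of the second. The fall was 1.90-fold (log2 fold change −0.93 ± 0.16, limma adjusted p = 0.00584). Nog is at chr11:89300638-89302332 on the minus strand.

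Chrd, with the lowest mean of the 10 genes, was 1.51, 1.92 and 1.90 FPKM in Dnmt3b+/+ and 1.15, 0.737 and 0.600 FPKM under the Dnmt3b-/- label. Its embryos followed the same order as for Nog within the second group, with embryo 1 highest. The fall was 2.07-fold (log2 fold change −1.05 ± 0.20, limma adjusted p = 0.00860) and was 0.61 on the log2 scale with a pseudocount of 1 FPKM in place of 0.1 FPKM. Chrd, at chr16:20733127-20742384 on the plus strand, shares 239 exon bases with Thpo on the opposite strand, which was listed at 0.569 to 0.656 FPKM in Dnmt3b+/+ and 0.215 to 0.423 FPKM under the Dnmt3b-/- label. Reads of these 2 genes cannot be told apart there.

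The summed level of Nog and Chrd was 7.46, 9.26 and 9.09 FPKM in Dnmt3b+/+ and 5.76, 3.92 and 3.58 FPKM under the Dnmt3b-/- label. Per embryo, the ligand sum was 2.84, 2.21 and 2.59 times this sum in Dnmt3b+/+, and 3.55, 6.13 and 6.38 times under the Dnmt3b-/- label. Embryo 1 labelled Dnmt3b-/- lay nearest to the Dnmt3b+/+ embryos and still above them. Whether noggin or chordin protein followed the RNA was not measured here.

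**Figure D2:**
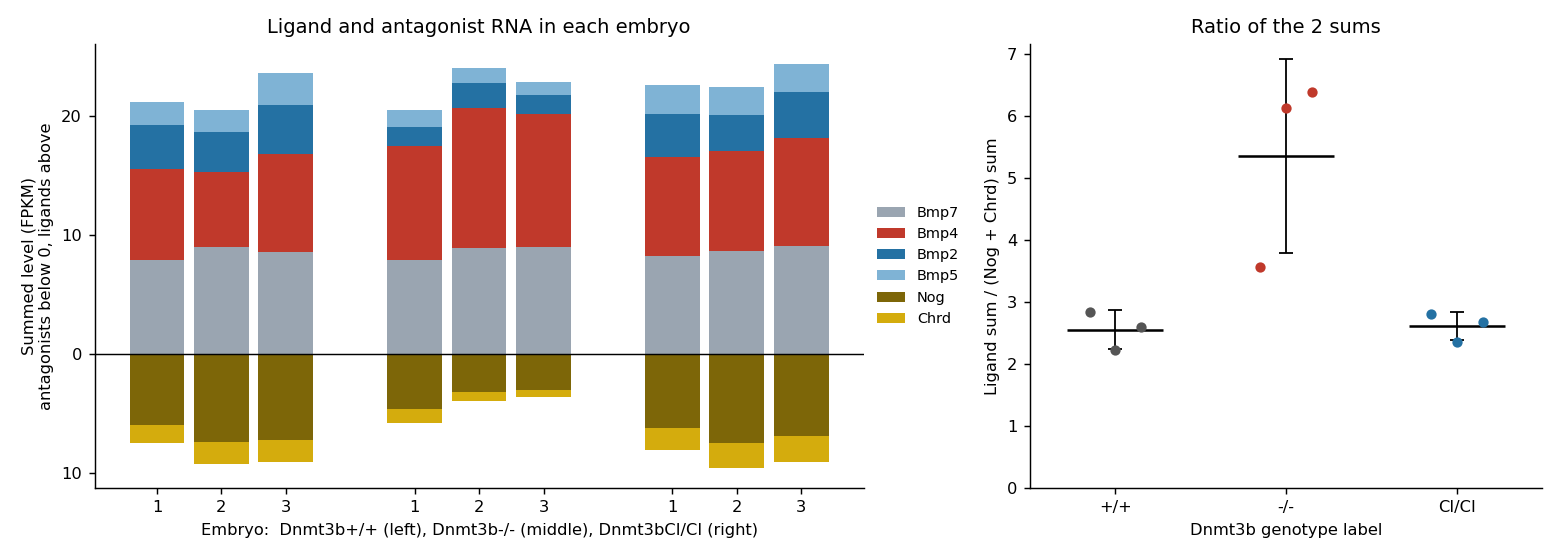
Left, stacked levels (FPKM) of the 4 ligands above 0 and of Nog and Chrd below 0 in each of the 9 embryos; right, the ratio of the ligand sum to the Nog and Chrd sum, with points for embryos 1, 2 and 3, the mean and the SD (n = 3). The ligand columns are of like height in all embryos, and the ratio is 3.55 to 6.38 under the -/- label against 2.21 to 2.84 in +/+ embryos.

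Marker lists of other tissues were read beside the falls of Nog and Chrd, in the comparison where 25.8% of all tested genes were called. All 9 measured cartilage genes, Sox9 and Col2a1 among them, were lower under the Dnmt3b-/- label (6 to 9 with 1 embryo left out), with a summed level of 85.7 to 135 FPKM against 154 to 231 FPKM in Dnmt3b+/+ embryos and no gene of the list under 0.1 FPKM in all embryos of a group. Of 6 neuronal genes none was called by limma and 1 had an unadjusted p under 0.05, but the summed level ranged widely, from 203 to 394 FPKM in Dnmt3b+/+ and from 160 to 336 FPKM under the Dnmt3b-/- label, where embryo 1 was highest for cartilage and neurons as for Nog and Chrd. Without that embryo 3 of the 6 neuronal genes were lower (Stmn2, Elavl3 and Dcx), as were Foxj1 of the floor plate list and Zic1 of the roof plate list. Of 6 tested notochord and floor plate genes 1 was called (Shh, higher), with sums of 20.1 to 30.2 FPKM and 19.9 to 32.5 FPKM, and of 6 roof plate genes none was called by limma or had an unadjusted p under 0.05 (0 of 6), with sums of 24.5 to 33.5 FPKM and 19.9 to 32.3 FPKM. The part of these tissues in the falls of Nog and Chrd was not tested.

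Id1, Id2 and Id3 rose, while Id4, the fourth ID gene, which is no member, lay lower without overlap and did not pass the test (log2 fold change −0.62, limma adjusted p = 0.0898). Id1, which in endothelium and neural progenitors holds back differentiation, was 23.5, 22.6 and 24.5 FPKM in Dnmt3b+/+ and 35.9, 42.2 and 35.9 FPKM under the Dnmt3b-/- label. The groups were far apart next to their spread. The rise was 1.61-fold (log2 fold change 0.68 ± 0.07, limma adjusted p = 8.8e-04). Id1 is at chr2:152736251-152737410 on the plus strand.

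Id2, a partner of E proteins in many progenitors, ranged from 11.0 FPKM in embryo 2 to 12.5 FPKM in embryo 3 of Dnmt3b+/+, with embryo 1 in between, and was 17.7, 17.5 and 18.7 FPKM under the Dnmt3b-/- label. It had the lowest adjusted p of the 10 genes, and its embryos did not overlap. The rise was 1.54-fold (log2 fold change 0.62 ± 0.06, limma adjusted p = 4.79e-04). Id2 is at chr12:25093799-25097140 on the minus strand.

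Id3, a close relative of Id1, was 35.2, 34.4 and 34.4 FPKM in Dnmt3b+/+ and 58.7, 50.7 and 41.2 FPKM under the Dnmt3b-/- label. The Dnmt3b+/+ embryos were tightly grouped and the others spread widely, with embryo 3 nearest to Dnmt3b+/+. The rise was 1.43-fold (log2 fold change 0.52 ± 0.13, limma adjusted p = 0.0194). Of the 8 calls this was the only one lost under any alternative, with an adjusted p of 0.059 without Dnmt3b+/+ replicate 3 and 0.0652 without Dnmt3b-/- replicate 2. Id3 is at chr4:136143497-136145755 on the plus strand.

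Summed over Id1, Id2 and Id3, the level was 70.2, 68.1 and 71.3 FPKM in Dnmt3b+/+ embryos and 112.3, 110.4 and 95.8 FPKM under the Dnmt3b-/- label. Id3 made up 48.2 to 50.6% of the sum in the former and 43.0 to 52.3% in the latter, so the shares overlapped while the total did not.

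Smad6 was listed with the targets and with the inhibitors of the pathway. Its level was 6.16, 5.81 and 5.88 FPKM in Dnmt3b+/+ and 7.17, 7.93 and 5.56 FPKM under the Dnmt3b-/- label. Embryos 1 and 2 lay above all Dnmt3b+/+ embryos and embryo 3 below them. The log2 fold change was 0.19 with a 95% interval from −0.07 to 0.46 (limma adjusted p = 0.245). The value rested on single libraries, since the log2 fold change was 0.34 without Dnmt3b-/- replicate 3 (limma adjusted p = 0.0248) and 0.09 without Dnmt3b-/- replicate 2 (limma adjusted p = 0.623). Smad6 is at chr9:63953076-64022059 on the minus strand.

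The other marker lists are given beside the rises of Bmp4 and the IDs, in the comparison where 25.8% of all tested genes were called. All 6 measured immediate early genes, which respond within minutes to stress and growth factors, were higher under the Dnmt3b-/- label, with summed levels of 67.0 to 73.7 FPKM against 38.5 to 42.8 FPKM in Dnmt3b+/+, and Fosb was under 0.1 FPKM in all Dnmt3b+/+ and all Dnmt3bCI/CI embryos. Of 7 red cell genes 2 were higher, Hba-x and Hbb-bh1, with summed levels of 1802 to 5744 FPKM against 1388 to 2070 FPKM. Hba-x lost the call without Dnmt3b+/+ replicate 3 or Dnmt3b-/- replicate 3 and in a fit of only these 2 genotypes, and 3 were called without Dnmt3b-/- replicate 1. Among the embryos labelled Dnmt3b-/-, embryo 2 had the highest red cell sum and the highest Id1, Bmp4 and Smad6, but also the highest Bmp2, which fell. Id2 was lowest in that embryo (17.5 FPKM), and Id3 was highest in embryo 1 (58.7 FPKM). Of 7 endothelial genes 1 was called, Erg, which was lower, with sums of 32.6 to 35.7 FPKM against 35.2 to 39.8 FPKM.

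Of 8 genes of the limb bud and surface ectoderm, Fgf8, a signal of the limb ectodermal ridge, was 3.34-fold higher, at 1.06, 3.43 and 2.85 FPKM against 0.372 to 0.830 FPKM. The keratins Krt5 and Krt14 were lower (1.83-fold and 1.99-fold), and the summed level was 37.3 to 48.2 FPKM against 48.6 to 58.8 FPKM. Fgf8 was no longer called without Dnmt3b-/- replicate 2 or 3 or in a fit of only these 2 genotypes. Embryos 2 and 3 labelled Dnmt3b-/- were also the highest 2 for Bmp4. Of 5 neural progenitor genes 1 was called, Nes, which was 1.42-fold higher, with sums of 127 to 197 FPKM against 120 to 172 FPKM, and the call was lost in 6 of the 9 fits that left out 1 embryo. Of 5 lens crystallins 4 were lower, with sums of 3.83 to 7.49 FPKM against 38.2 to 69.0 FPKM and Cryga under 0.1 FPKM in all 3 embryos labelled Dnmt3b-/-, and 1 was called when any 1 of Dnmt3b+/+ replicates 1, 2 and 3 or Dnmt3b-/- replicates 2 and 3 was left out. Ttr was the 1 of 5 liver genes called (4.57-fold lower; 3 of 5 without Dnmt3b+/+ replicate 2, the library with liver genes near 0), with liver sums of 44.5 to 91.9 FPKM against 35.8 to 228 FPKM, and Actn2 the 1 of 6 heart muscle genes (1.95-fold lower, lost in 3 of these 9 fits), with heart sums of 19.2 to 85.2 FPKM against a highest sum of 94.9 FPKM in Dnmt3b+/+ embryo 2 and a lowest in embryo 1, below all embryos labelled Dnmt3b-/-. The part of these tissues and of the immediate early genes in the rises of Bmp4 and the IDs was not tested.

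**Figure D3:**
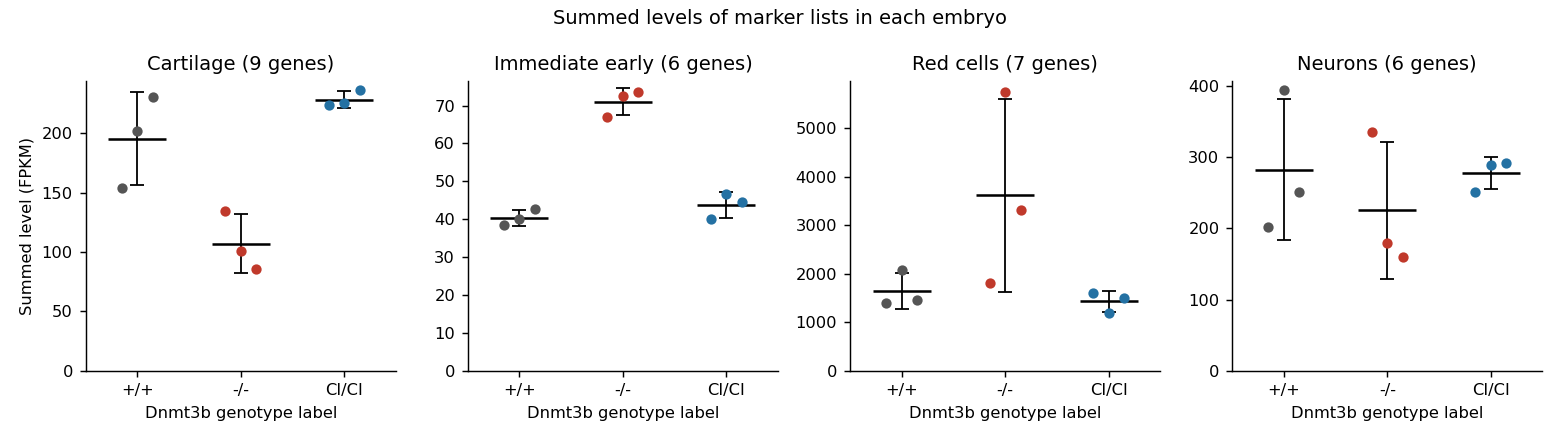
Summed levels (FPKM, linear axes from 0) of 4 marker lists in each embryo, with the mean and SD (n = 3). Cartilage genes are lower (85.7 to 135 FPKM) and immediate early genes higher (67.0 to 73.7 FPKM) in all 3 embryos labelled -/-, while the red cell and neuronal sums overlap between -/- and +/+.

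The second comparison asked whether an inactive enzyme at the Dnmt3b locus gives the same picture as the null label. No member was called in Dnmt3bCI/CI against Dnmt3b+/+ embryos by limma, and 1 of the 10, Id1, had an unadjusted p under 0.05. In this comparison 0.144% of tested genes were called and 5.25% had an unadjusted p under 0.05. The embryos of 3 members, Bmp4, Id1 and Id3, did not overlap between these genotypes, as for 13.2% of tested genes.

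In Dnmt3bCI/CI embryos Id1 was 25.7, 28.1 and 26.5 FPKM, all above the Dnmt3b+/+ embryos and all below those labelled Dnmt3b-/-. The log2 fold change against Dnmt3b+/+ was 0.19, with a 95% interval from 0.02 to 0.36 (unadjusted p = 0.0357, limma adjusted p = 0.925). Id3, at 35.7, 44.5 and 39.5 FPKM, and Bmp4, at 8.36, 8.36 and 9.07 FPKM, were also above every Dnmt3b+/+ embryo. Their log2 fold changes were 0.20 (95% interval −0.09 to 0.48) and 0.23 (95% interval −0.03 to 0.48), with limma adjusted p of 0.949 for both. The estimates under the Dnmt3b-/- label, 0.52 for Id3 and 0.55 for Bmp4, lie outside these intervals. Those estimates have 95% intervals of their own, 0.23 to 0.81 and 0.29 to 0.80, which overlap these. The direct comparison of the mutant labels, given below, called neither gene in the main fit.

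Id2 was 12.2, 11.6 and 11.6 FPKM in Dnmt3bCI/CI embryos, within the Dnmt3b+/+ range, with a log2 fold change of 0.02 (95% interval −0.12 to 0.15) that turned to −0.0007 under median-of-ratios scaling. Smad6, at 5.99, 6.48 and 6.51 FPKM, differed by 0.09 (95% interval −0.18 to 0.35), and Bmp7, at 8.23, 8.67 and 9.11 FPKM, by 0.03 (95% interval −0.14 to 0.20). All of these intervals hold 0.

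The genes that fell under the null label did not move here by as much. Bmp2 was 3.57, 3.08 and 3.86 FPKM in Dnmt3bCI/CI embryos, with a log2 fold change against Dnmt3b+/+ of −0.10 (95% interval −0.38 to 0.18). Nog was 6.24, 7.48 and 6.87 FPKM, a difference of 0.01 (95% interval −0.36 to 0.38) whose sign turned to −0.007 under median-of-ratios scaling and −0.009 under quantile normalization. Chrd was 1.84, 2.05 and 2.21 FPKM, a difference of 0.19 (95% interval −0.27 to 0.65). Bmp5 was 2.43, 2.34 and 2.31 FPKM, a difference of 0.15 (95% interval −0.16 to 0.47). Falls of the size seen under the Dnmt3b-/- label are outside each of these 4 intervals.

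The ligand sum of 22.6, 22.5 and 24.3 FPKM and the ratio of that sum to Nog and Chrd of 2.80, 2.36 and 2.68 in Dnmt3bCI/CI embryos overlapped those of Dnmt3b+/+ embryos. Bmp4 was 2.35 to 2.72 times Bmp2 in Dnmt3bCI/CI embryos, above the Dnmt3b+/+ range of 1.84 to 2.06 and below the range under the Dnmt3b-/- label. The cartilage and immediate early lists had no gene called by limma in this comparison and 1 gene each with an unadjusted p under 0.05, with summed levels of 224 to 237 FPKM and 40.1 to 46.8 FPKM in Dnmt3bCI/CI embryos. No gene of any other marker list was called by limma either. At an unadjusted p under 0.05, 3 of 6 roof plate genes (Lmx1a, Wnt3a and Rspo1), 2 of 5 neural progenitor genes (Sox2 and Pax6) and 2 of 8 limb bud and surface ectoderm genes (Sp8 and Dlx6) lay lower in Dnmt3bCI/CI embryos, beside 5.25% of all tested genes, and 1 of 7 endothelial genes, Pecam1, lay higher (log2 fold change 0.19). Lmx1a, a roof plate transcription factor, had the lowest of these p-values (log2 fold change −0.96, unadjusted p = 5.6e-04, limma adjusted p = 0.233).

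**Figure D4:**
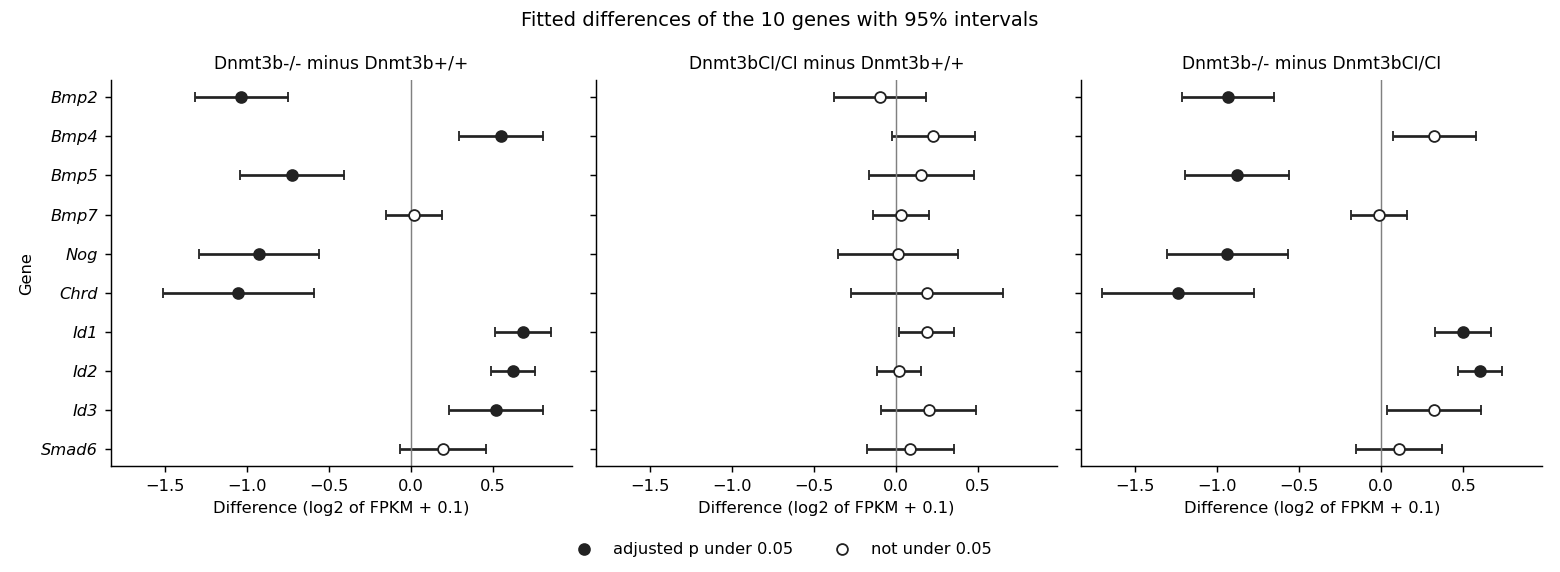
Fitted difference of each of the 10 genes on the log2(FPKM + 0.1) scale in the 3 comparisons, with 95% intervals; filled points have an adjusted p under 0.05. The left and right panels have 8 and 6 filled points and the middle panel none.

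The third comparison set the 2 mutant labels against each other directly. Of the 10 genes, 6 were called in this contrast, where 27.9% of tested genes were called. Id1 and Id2 were higher under the Dnmt3b-/- label, against a background of 9.7%, and Bmp2, Bmp5, Nog and Chrd lower, against a background of 18.2%. This comparison uses the same embryos labelled Dnmt3b-/- as the first, so the 2 are not independent. Embryos of 7 members did not overlap, as for 46.2% of all tested genes.

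Chrd had the largest difference of the 10, 2.36-fold lower under the Dnmt3b-/- label (log2 fold change −1.24 ± 0.20, limma adjusted p = 0.00392). It was also the only member past a fold of 2, a rule met by 5.42% of tested genes. With a pseudocount of 1 FPKM neither held, since Chrd was then at −0.74 and Nog at −0.79 on the log2 scale. Nog was 1.92-fold lower (log2 fold change −0.94 ± 0.16, limma adjusted p = 0.00471). Bmp2 was 1.91-fold lower (−0.94 ± 0.12, limma adjusted p = 0.00176) and Bmp5 1.84-fold lower (−0.88 ± 0.14, limma adjusted p = 0.00351), or −0.59 with a pseudocount of 1 FPKM. Among the IDs, Id2 was 1.52-fold higher (0.60 ± 0.06, limma adjusted p = 5.33e-04) and Id1 1.41-fold higher (0.50 ± 0.07, limma adjusted p = 0.00271).

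Marker lists are given beside these genes here too, where 27.9% of all tested genes were called. Of 9 cartilage genes 8 were lower under the Dnmt3b-/- label, with summed levels of 85.7 to 135 FPKM against 224 to 237 FPKM in Dnmt3bCI/CI embryos, and of 6 immediate early genes 5 were higher, with 67.0 to 73.7 FPKM against 40.1 to 46.8 FPKM. The latter count was 2 without Dnmt3b-/- replicate 2, and 3 without Dnmt3b-/- replicate 3 or Dnmt3bCI/CI replicate 1. Endothelial genes were lower in 3 of 7 cases (Pecam1, Cdh5 and Erg), with 32.6 to 35.7 FPKM against 41.7 to 43.6 FPKM. Of 6 roof plate genes Lmx1a and Rspo1 were higher, with sums of 19.9 to 32.3 FPKM against 22.7 to 28.1 FPKM. Of 5 neural progenitor genes Sox2 and Nes were higher, with sums of 127 to 197 FPKM against 112 to 135 FPKM, and Nes lost the call without Dnmt3b-/- replicate 3 and without Dnmt3bCI/CI replicate 1 or 3. Fgf8 and Sp8 were higher and Krt5 and Krt14 lower among 8 limb bud and surface ectoderm genes. Without Dnmt3b-/- replicate 2 or 3 or Dnmt3bCI/CI replicate 1 or 2, Sp8 was no longer called, and without Dnmt3b-/- replicate 1, 4 of these genes were higher. The liver and lens lists had 1 of 5 genes each called lower, Ttr and Cryba4, and both calls were lost in some fits that left out 1 embryo. Ttr was lost in 6 of the 9 fits that left out 1 embryo, and 3 liver genes were called without Dnmt3b+/+ replicate 2. Cryba4 was lost without Dnmt3b-/- replicate 2 or 3 and without Dnmt3bCI/CI replicate 1 or 3, and all 5 lens genes were called without Dnmt3bCI/CI replicate 2, the library with Cryaa near 0. The other lists had 1 gene called lower for heart muscle (Actn2), 1 higher for notochord and floor plate (Shh), 2 higher for red cells (Hba-x and Hbb-bh1) and none called by limma for neurons, where 2 had an unadjusted p under 0.05 and 4 were lower without Dnmt3b-/- replicate 1. The part of these tissues in the differences of the 10 genes was not tested.

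Bmp4 and Id3 lay near the threshold in this comparison. Bmp4 was 0.32 higher on the log2 scale (95% interval 0.07 to 0.58, limma adjusted p = 0.0607). It was called under median-of-ratios scaling (adjusted p = 0.0327), in a fit of only these 2 genotypes (0.0392), without Dnmt3b+/+ replicate 2 (0.0258) and without Dnmt3b-/- replicate 1 (0.0213). Id3 was also 0.32 higher (95% interval 0.04 to 0.61, limma adjusted p = 0.0871) and was called under median-of-ratios scaling (0.0322) and without Dnmt3b-/- replicate 3 (0.026). Smad6 differed by 0.11 (95% interval −0.16 to 0.37) and Bmp7 by −0.01 (95% interval −0.18 to 0.16), and the sign of Bmp7 turned under median-of-ratios scaling (0.06) and quantile normalization (0.02).

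Around the 10 genes, 51 other tested genes of the BMP pathway were counted by role. Under the Dnmt3b-/- label against Dnmt3b+/+, 7 of the 51 were higher and 17 lower, 47.1% called against the background of 25.8%, and their median log2 fold change was −0.22 against −0.07 over all tested genes. Under median-of-ratios scaling 9 were higher and 13 lower, and under quantile normalization 8 and 10. Without Dnmt3b+/+ replicate 3 or without Dnmt3b-/- replicate 2 the count fell to 1 higher and 9 lower, without Dnmt3b-/- replicate 3 to 3 higher and 9 lower, and without Dnmt3b+/+ replicate 2 to 2 higher and 11 lower. None of the 7 higher calls was kept under every alternative, and 7 of the 17 lower calls were kept under every alternative that tested them (Bmp3, Gdf5, Acvr1, Fstl1, Bmp1, Bmper and Tcf4). In Dnmt3bCI/CI against Dnmt3b+/+ none of the 51 was called by limma, and 7 had an unadjusted p under 0.05, beside 5.25% of all tested genes. Of these, the targets Id4 (log2 fold change −0.76), Msx2 (−0.39) and Hey1 (−0.24) were lower in Dnmt3bCI/CI embryos, as were Bmpr2, Acvr2b and Tcf4. Fstl1 was higher (0.17). Between the 2 mutant labels, 8 of the 51 were higher and 17 lower under the Dnmt3b-/- label, beside 9.7% and 18.2% of all tested genes, a count of 25 that fell to 15 without Dnmt3bCI/CI replicate 1, to 16 without Dnmt3bCI/CI replicate 3 and to 16 without Dnmt3b-/- replicate 3. Under quantile normalization 9 were higher and 10 lower.

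Of 8 other ligands, 3 were lower under the Dnmt3b-/- label and none higher. Gdf5, a ligand of joint and cartilage formation, was 0.574 to 0.789 FPKM against 1.96 to 2.81 FPKM in Dnmt3b+/+, a 3.27-fold fall (log2 fold change −1.71, limma adjusted p = 5.98e-04). Bmp3, which opposes bone-forming BMPs, was 0.143 to 0.244 FPKM against 0.633 to 0.872 FPKM (−1.61, limma adjusted p = 0.00113). Bmp6 was 0.929 to 1.63 FPKM against 1.54 to 3.03 FPKM (−0.89, limma adjusted p = 0.035), and its groups overlapped. Both Gdf5 and Bmp3 are genes of skeletal tissue, and the cartilage list given above moved in the same direction; its part was not tested. All 10 receptors and co-receptors were tested, and 3 were lower, Bmpr2, Acvr1 and Acvr2a, 3 of 10 being near the 25.8% of all tested genes. Of these, Bmpr2 (adjusted p = 0.0433 in limma) and Acvr2a (0.0241) each lost the call in some fits that left out 1 embryo, and Acvr1 (0.0106) in none.

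Of 11 other antagonists, 4 were lower and 1 higher, a count that fell to Fstl1 alone without Dnmt3b+/+ replicate 3 and to 2 lower and 1 higher without Dnmt3b-/- replicate 2 or 3. Fstl1, a follistatin-like protein, was 34.8 to 39.2 FPKM against 50.8 to 55.5 FPKM (−0.52, limma adjusted p = 0.00137). The chordin-like genes Chrdl1 (−0.51, limma adjusted p = 0.0146) and Chrdl2 (−0.69, limma adjusted p = 0.0277) were lower like Chrd, although Chrdl2 was at 0.0411 to 0.0578 FPKM under the Dnmt3b-/- label, below the filter of 0.1 FPKM in all 3 embryos. Nbl1 was the fourth. Sost, which encodes sclerostin, known in bone as an inhibitor of WNT signalling, rose from 0.284 to 0.369 FPKM in Dnmt3b+/+ to 0.561 to 1.02 FPKM (log2 fold change 1.01, limma adjusted p = 0.0149).

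Of 7 modulators outside the cell, 3 were lower and 1 higher. Bmp1, a protease that cleaves chordin and procollagens and is no BMP ligand despite its name, was 19.4 to 26.2 FPKM against 33.7 to 37.7 FPKM (−0.66, limma adjusted p = 0.00406). Bmper, which binds BMPs, was 0.985 to 1.51 FPKM against 1.96 to 2.48 FPKM (−0.76, limma adjusted p = 0.00974). Tll1, a relative of Bmp1, was also lower. Bambi, a decoy receptor that BMPs induce and that was also listed with the targets, was 1.99 to 3.00 FPKM against 1.37 to 1.71 FPKM (0.62, limma adjusted p = 0.0361).

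Among 7 other SMAD transducers and inhibitors, Smad5, Smad9 and Smurf1, which is no SMAD, were lower and the inhibitory Smad7 higher. Smad9, a receptor-activated SMAD, was 0.432 to 0.706 FPKM against 0.778 to 1.02 FPKM (−0.53, limma adjusted p = 0.0481). Smad7, the second inhibitory SMAD and a partner of Smad6 in function, was 5.45 to 6.72 FPKM against 4.88 to 5.12 FPKM (log2 fold change 0.30, limma adjusted p = 0.0335). All 4 calls were lost without Dnmt3b+/+ replicate 3, without Dnmt3b-/- replicate 2 and without Dnmt3b-/- replicate 3.

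Of 7 target genes that are not members, 4 were higher under the Dnmt3b-/- label (Smad7, Bambi, Msx1 and Msx2) and none lower, with 9.41% of all tested genes called higher. Atoh8 (limma adjusted p = 0.0549) and Hey1 (0.0612) did not pass the test. The count of 4 changed when single libraries were left out, as did the count over all genes given at the end, and the cause was not tested. None of the 7 was called without Dnmt3b+/+ replicate 2, without Dnmt3b+/+ replicate 3 or without Dnmt3b-/- replicate 2. Only Msx1 was called without Dnmt3b+/+ replicate 1, and only Atoh8 without Dnmt3b-/- replicate 3. The count fell to 2 without Dnmt3bCI/CI replicate 1 or 3 and to 3 higher and 1 lower (Id4) without Dnmt3bCI/CI replicate 2. It fell to 1 higher and 1 lower (Id4) in a fit of only these 2 genotypes, and was 6 under median-of-ratios scaling and under quantile normalization. Msx1, a homeobox gene of limb and face, was 18.7 to 29.7 FPKM against 12.6 to 16.5 FPKM in Dnmt3b+/+ (log2 fold change 0.85, limma adjusted p = 0.0281), and it was 1.26 higher on the log2 scale than in Dnmt3bCI/CI embryos (limma adjusted p = 0.0056). Msx2 was 3.28 to 4.74 FPKM against 2.59 to 3.25 FPKM (0.47, limma adjusted p = 0.0425). Id4, the fourth ID gene, was the one target with a fitted difference below 0: it was 15.6 to 20.2 FPKM under the Dnmt3b-/- label and 24.6 to 33.3 FPKM in Dnmt3b+/+ (−0.62, limma adjusted p = 0.0898), and in Dnmt3bCI/CI embryos it was 11.0 to 22.5 FPKM. The list holds genes that other pathways also switch on, and Smad7 and Bambi stand in 2 lists each.

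Between the 2 mutant labels, a comparison that shares the embryos labelled Dnmt3b-/-, the same rule named 12 genes. Bmp3 (log2 fold change −1.75) and Gdf5 (−1.67) were furthest down under the Dnmt3b-/- label, with Bmper at −0.90, Tll2 at −0.84, Bmp6 at −0.79, Bmp1 at −0.74, Fstl1 at −0.69, Smad9 at −0.67 and Chrdl2 at −0.67. Sost (1.22), Msx2 (0.86) and Msx1, given above, were higher. Msx2 and Msx1 had fitted differences below 0 in Dnmt3bCI/CI against Dnmt3b+/+ (−0.39 and −0.42), without a call. Their limma adjusted p ranged from 4.1e-04 (Fstl1) to 0.0496 (Bmp6).

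All 3 E proteins, the partners that ID proteins bind, were called under the Dnmt3b-/- label against Dnmt3b+/+, where 25.8% of all tested genes were. Tcf3 was 73.5 to 78.7 FPKM against 59.1 to 64.2 FPKM (log2 fold change 0.30, limma adjusted p = 0.0184) and Tcf12 10.4 to 11.0 FPKM against 9.05 to 9.45 FPKM (0.20, limma adjusted p = 0.0192). Tcf4 went down, 4.90 to 5.08 FPKM against 6.37 to 6.60 FPKM (−0.36, limma adjusted p = 0.00238). These are changes of at most 1.29-fold. Tcf4 was called under every alternative, whereas Tcf3 and Tcf12 both lost the call without Dnmt3b-/- replicate 2, Tcf3 also without Dnmt3b+/+ replicate 2 and under quantile normalization, and Tcf12 also without Dnmt3b+/+ replicate 3 and without Dnmt3b-/- replicate 3.

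**Figure D5:**
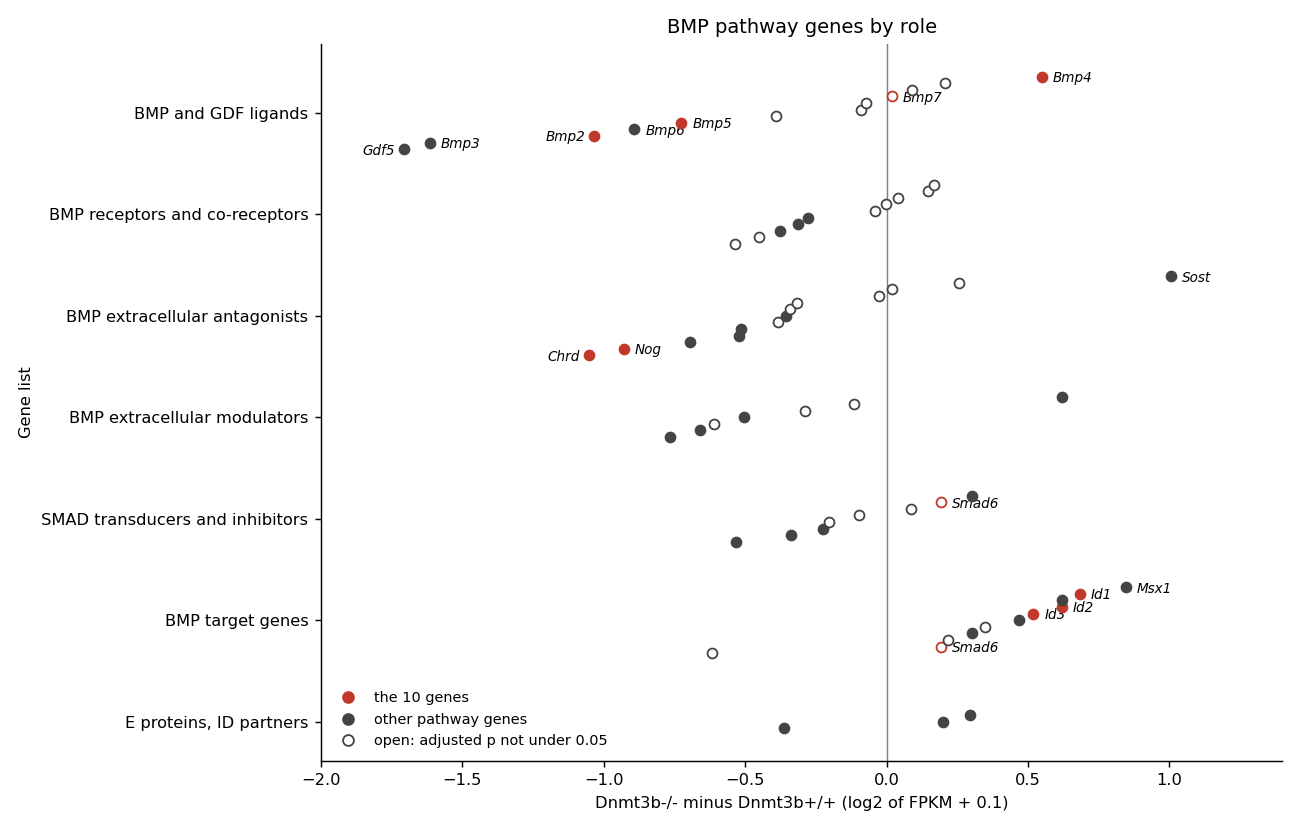
Log2 fold change of each tested BMP pathway gene between embryos labelled Dnmt3b-/- and Dnmt3b+/+ by role, the 10 genes in red and others in grey, filled where the adjusted p was under 0.05; Smad6, Smad7 and Bambi appear in 2 lists each. Target genes lie mostly to the right of 0, with Id4 at −0.62, and most antagonists lie to the left, with Sost at 1.01.

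The 3 members with the largest changes under the Dnmt3b-/- label on the log2(FPKM + 0.1) scale were compared with all 12796 tested genes of at least 1 FPKM on average, by Pearson's r over the 9 embryos. Chrd was most like Slc39a13 (r = 0.997), Frmpd1 (0.997) and Mybph (0.996). Slc39a13 encodes a zinc transporter of connective tissue, and Mybph a muscle myosin-binding protein. Nog was most like Sdc3 (r = 0.993), Zfp651 (0.991) and Kcna6 (0.991), of which Sdc3 is a syndecan and Kcna6 a potassium channel of neurons. Bmp2 was most like Snhg18 (r = 0.994), Gm37422 (0.989) and Tmem176b (0.986). All 9 embryos share the split by genotype, so these values describe the pattern and no test was made. Mybph, as an example, had means of 5.98, 1.58 and 8.20 FPKM in Dnmt3b+/+, Dnmt3b-/- and Dnmt3bCI/CI, and Chrd 1.78, 0.828 and 2.03 FPKM. When each embryo was expressed as its deviation from the mean of its own genotype, Nog and Chrd still ran together over the 9 embryos (r = 0.951), whereas Bmp2 and Bmp5 did less so (r = 0.43) and Id1 and Id2 did not (r = −0.05). Some pairs that moved in opposite directions between genotypes also ran together here, such as Nog and Id3 (r = 0.78), Chrd and Id3 (0.77) and Bmp2 and Bmp4 (0.71). Others did not, such as Bmp4 and Nog (−0.57).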

How the data were processed

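RNA-seq had been performed on total RNA of 9 whole embryos, 1 library each, as paired-end runs. The authors trimmed the reads, aligned them with STAR to mm10, filtered them on mapping quality and ran the RNA-seq quantitation of SeqMonk. They deposited FPKM values per gene and embryo on a linear scale. The annotation release and strandedness are not given in the sources used here. A gene without reads holds a value worth 0.9 reads, and from 10637 to 11485 genes per library were at it. For all 10 genes the FPKM values resolved into whole reads (tolerance 0.05 reads), which were used for depth only. For Bmp4 and Chrd this needed an exon length other than the annotated one, 2224 in place of 2248 bases and 5838 in place of 6258. That length was the shortest in a search that gave whole reads, so the read counts of these genes rest on it.

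A gene was kept if 3 or more of the 9 embryos reached 0.1 FPKM, which left 19397 genes. Values were transformed to log2(FPKM + 0.1) and fitted by limma 3.58.1 (R 4.3.3), with all 9 embryos and 3 genotypes in 1 model, a variance trend and Benjamini-Hochberg adjustment over all tested genes. The authors used DESeq2, which needs counts and was not run. Fold changes are on the log2(value + pseudocount) scale, which understates those of low genes. Positions are those of GENCODE M21 (GRCm38), promoters those of RefSeq. Tables were handled with python 3.11.15 and pandas 2.3.3.

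The 10 genes, the pathway lists and the marker lists were chosen with earlier results of these data known. Named were all 10 genes, other pathway genes with an adjusted p under 0.05 (up to 12 per comparison by absolute log2 fold change, the rest as counts), and the 3 genes most like each of the 3 members that changed most. Nbl1, Tll1, Smurf1, Smad5, Smad7, Msx2, Id4, Hey1, Atoh8 and the receptors, E proteins and marker genes named beyond this rule were chosen after their values were seen. Junb, listed 2 times, was left out. Bmp8a, Cer1 and Noto did not pass the filter. Bisulfite sequencing was not analysed here.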

Additional observations from a re-analysis of the deposited data

How the results depend on the processing

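Each of the 10 genes was refitted under 17 alternatives per comparison. Under the Dnmt3b-/- label against Dnmt3b+/+, 7 to 9 members were called when single embryos were left out and 8 under every other alternative, and against Dnmt3bCI/CI 6 to 7 with an embryo left out and 6 to 8 otherwise. In Dnmt3bCI/CI against Dnmt3b+/+ none was called by limma under any alternative. Signs turned only for differences near 0. Under median-of-ratios scaling Nog was at −0.007 and Id2 at −0.0007 in Dnmt3bCI/CI against Dnmt3b+/+, and Bmp7 at 0.056 between the mutant labels; under quantile normalization Nog was at −0.0094 and Bmp7 at 0.019. With an embryo left out, Bmp7 ranged from −0.031 to 0.079, from −0.019 to 0.074 and from −0.048 to 0.048 in the 3 comparisons, Nog from −0.085 to 0.076 and Id2 from −0.023 to 0.066 in Dnmt3bCI/CI against Dnmt3b+/+, and Smad6 from −0.0008 to 0.25 between the mutant labels.

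The number of other pathway genes called under the Dnmt3b-/- label against Dnmt3b+/+ was 24 (7 higher), and 15 (3 higher) in a fit of only these 2 genotypes, 12 (1 higher) with a replicate block, under which no target and only Tcf4 of the E proteins was called, and 10 to 30 (1 to 9 higher) with an embryo left out; against Dnmt3bCI/CI it was 25 and 15 to 28. Over all genes the counts were 5001 (2797 with only 2 genotypes, 3029 with the block, 2388 to 6859 with an embryo left out), 28 for Dnmt3bCI/CI (18 with the block, 19 to 32) and 5407 between the mutant labels (3595 with the block, 3069 to 7199). The cause was not tested. Embryos share only a number: same-numbered embryos of different genotypes had deviations correlated at −0.34 to 0.215, with a mean of −0.09 against 0.05 for other pairs, so the pairing was not used, and with the replicate block 8, 0 and 6 members were called as without it. Of all called genes between the mutant labels 1882 were higher, 2692 of 5530 under median-of-ratios scaling and 2840 of 5121 under quantile normalization. Counting is least precise for Bmp5 (179 to 439 reads) and Chrd (142 to 558 reads).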
